A study of Drosophila melanogaster with 8 samples.

Results

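Fer2, Hr51 and gl are transcription factor genes known for forming or keeping subsets of the clock neurons of the Drosophila brain. These 3 genes were taken by name from gene tables that list 17868 genes in each of 8 libraries, and all 3 were found in every table. All 8 libraries hold polyadenylated RNA of GFP-positive, DAPI-negative cells sorted from adult brains, about 2000 per sample, of flies carrying ClkGAL4 and UAS-GFP-NLS over UAS-mor-RNAi. ClkGAL4 drives both the nuclear marker and the hairpin against mor, a Brahma complex gene, so every library comes from knockdown cells, and control libraries were not analysed here. Flies had 5 days of 12 h light and 12 h darkness and were then kept in constant darkness, with collection on day 2 at CT0, CT6, CT12 and CT18 (circadian time in hours) and 2 libraries for each. A temperature of 20 to 22 °C is given for all 8 samples. The labels give neither age nor sex of the flies, nor whether duplicates came from separate flies, and the spread behind each p-value may therefore be technical.

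The clock network of the fly brain consists of small groups of lateral and dorsal neurons, and different transcription factors specify or maintain different groups. Fer2 encodes a basic helix-loop-helix (bHLH) protein needed by the ventral lateral neurons, which release the neuropeptide PDF, and by a cluster of dopaminergic neurons. Hr51, also called unfulfilled, encodes a nuclear receptor that acts in the same PDF-releasing neurons and in axon regrowth of mushroom body neurons. The zinc finger protein encoded by gl (glass) is required in photoreceptors and for a group of dorsal clock neurons. The comparison over the 4 times asks whether transcripts of these factors vary over the circadian day.

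Total estimated counts ran from 15006258 to 29346348 per library. A count of 3 corresponds to 0.103 to 0.194 CPM (a count scaled to library size, with TMM), a floor that covers counting error only, and each of the 3 genes was far above it, with at least 177 counts in every library. The sorted cells carried neuronal transcripts, with elav at 26.4 to 63.1 TPM (a level per length) and nSyb at 703.3 to 1240 TPM. The knockdown target mor was at 4.14 to 21.8 CPM, which without control libraries is no check of the knockdown. The circadian photoreceptor gene cry was at 166.2 to 686.4 TPM. Of the glial markers, repo was at 0 to 0.261 TPM and moody at 0.014 to 0.357 TPM, and the 8 markers summed to between 36.4 and 134.2 TPM. Hemocyte markers summed to between 0.115 and 44.4 TPM. The duplicates of a time differed by far more than counting noise, with a chi-square per degree of freedom between 124.4 and 327.7.

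Fer2 was the most abundant of the 3 factors per length in all 8 libraries. It lies on 3R from 16149369 to 16151312 (FBgn0038402, minus strand, protein coding, 4 annotated transcripts), in the Ensembl annotation of dm6 coordinates. Levels ran from 230.4 TPM in CT6 replicate 1 to 553.0 TPM in CT0 replicate 2, with a median of 376.3 TPM. That put Fer2 among the highest 2.8% to 7.15% of genes with a TPM value in a library. Hr51 (FBgn0034012, 2R 15331325 to 15339384, plus strand, 1 annotated transcript) had a median of 17.3 TPM and a range of 11.6 to 27.5 TPM. gl (FBgn0004618, 3R 18367927 to 18372738, minus strand, 3 annotated transcripts) had a median of 7.64 TPM and a range of 3.69 to 17.98 TPM. Within a library Fer2 exceeded Hr51 by 4.37 ± 0.26 log2 units (SD, n = 8; exact sign-flip permutation test on log2(TPM + 0.1), two-sided, p = 0.0078, the smallest possible). Fer2 exceeded gl by 5.56 ± 0.98 log2 units (exact p = 0.0078, n = 8). Hr51 exceeded gl by 1.19 ± 0.96 log2 units, in 7 of 8 libraries (exact p = 0.0156, n = 8), and in CT6 replicate 1 gl was the higher, at 17.98 against 11.6 TPM.

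**Figure D1:**
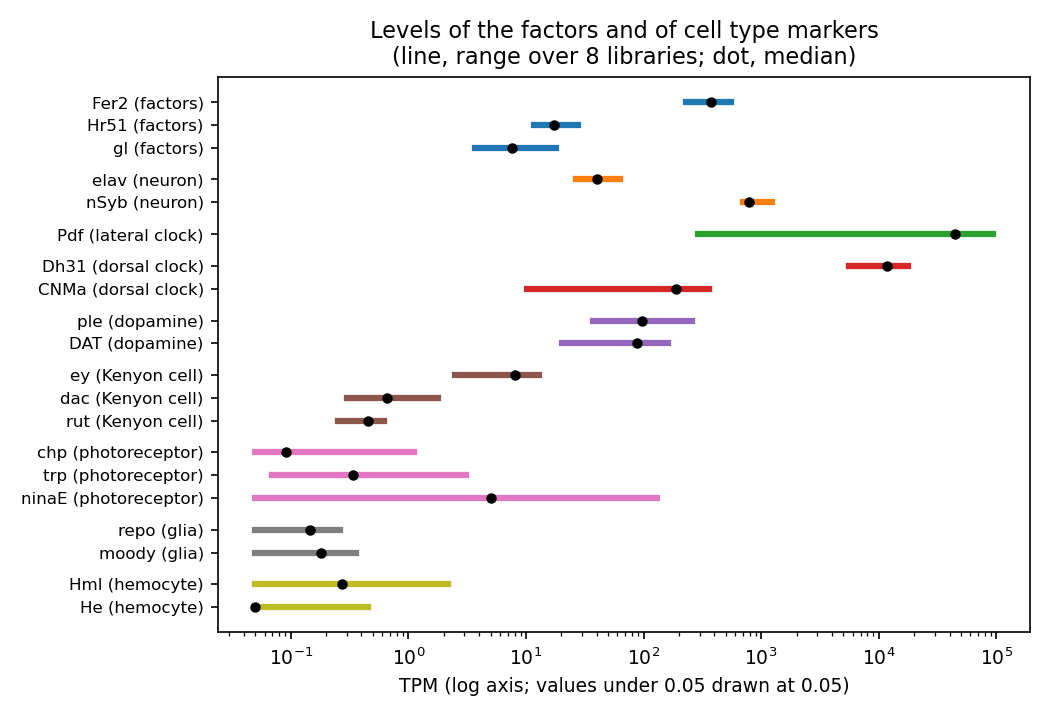
Level per length of the 3 factors and of cell type markers, in TPM on a log axis, where lines span the 8 libraries and dots mark the median. Fer2 lies at 230.4 to 553.0 TPM, and the photoreceptor gene chp and the glial genes repo and moody lie near or below 1 TPM. The markers drawn are a part of each list. Markers not drawn include the glial genes axo (0 to 0.145 TPM) and Gs2 (19.2 to 104.0 TPM). The photoreceptor gene Arr2 (0.153 to 195.1 TPM) is not drawn either, and ninaE, which is drawn, reaches 130.5 TPM. Of the hemocyte list, Sr-CI (0 to 22.5 TPM), NimC1 (0 to 16.8 TPM) and eater (0 to 2.43 TPM) are not drawn. The Kenyon cell genes not drawn are jdp (376.7 to 525.2 TPM), toy (89.0 to 165.8 TPM), Pka-C1 (67.1 to 204.3 TPM), prt (14.9 to 36.7 TPM) and crb (0.147 to 1.08 TPM).

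The ratio of Fer2 to Hr51 varied less over the libraries than the ratios to gl. In TPM, gl itself had a 4.87-fold range, against 2.40-fold for Fer2 and 2.36-fold for Hr51. Fer2 stood at 16.3 to 26.6 times the TPM of Hr51, a 1.64-fold range over the 8 libraries. Against gl, the ratio of Fer2 ran from 12.8 (CT6 replicate 1) to 100.4 (CT0 replicate 1), a 7.84-fold range. Hr51 stood at 0.648 to 5.63 times gl, an 8.69-fold range.

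Fer2 had its widest difference within a time, at CT6, and its highest mean at CT0. At CT0 it was at 438 and 566 CPM (replicates 1 and 2; mean 502.1 ± 90.9 SD, n = 2). The values at CT6 were 196 and 563 CPM (379 ± 259). At CT12 they were 293 and 431 CPM (362 ± 97.7), and at CT18 they were 282 and 382 CPM (332 ± 70.9). Both CT0 libraries lay above both CT12 libraries and both CT18 libraries, an arrangement that 13.1% and 18.2% of the 9999 tested genes showed, while the CT6 libraries spanned nearly the whole range. The means fell in the order CT0, CT6, CT12, CT18, and no neighbours in that order differed beyond their spread.

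The change of Fer2 over the day did not pass any test. CT12 minus CT0 was −0.47 ± 0.44 log2 units (SE; 95% interval −1.47 to 0.53; edgeR adjusted p = 1), and between −0.78 and −0.22 with 1 library left out. CT18 minus CT6 was −0.19 ± 0.44 (95% interval −1.19 to 0.81; edgeR adjusted p = 0.9). It was 0.76 without CT6 replicate 2, −0.76 without CT6 replicate 1, 0.01 without CT18 replicate 1 and −0.43 without CT18 replicate 2. A 24-hour harmonic had an amplitude (mean to peak) of 0.25 ± 0.22 log2 units with a fitted peak at 1.5 h (edgeR adjusted p = 0.95). The amplitude was 0.45 without either CT6 library, with the peak at 3.9 h without replicate 1 and at 20.1 h without replicate 2. Without CT12 replicate 1 or CT0 replicate 2 it was 0.14 or 0.17, and without CT12 replicate 2 it was 0.40. The exact permutation test between times gave p = 0.72 (two-sided, all 2520 arrangements of the time labels, smallest possible 0.0095).

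Hr51 separated the replicates at every time and showed little difference between times. Its values were 27.9 and 42.0 CPM at CT0 (35.0 ± 9.97 SD, n = 2) and 17.0 and 35.5 CPM at CT6 (26.2 ± 13.0). At CT12 it was at 26.2 and 44.5 CPM (35.3 ± 13.0), and at CT18 at 19.6 and 36.6 CPM (28.1 ± 12.1). All 4 replicate 2 libraries lay above all 4 replicate 1 libraries, as they did for 2.50% of tested genes, and the 4 times overlapped. By mean the order was CT12, CT0, CT18, CT6, with every neighbouring difference smaller than the SD within a time. The 24-hour amplitude was 0.05 ± 0.23 log2 units (edgeR adjusted p = 1), CT12 minus CT0 was 0.01 ± 0.46 (95% interval −1.03 to 1.06) and CT18 minus CT6 was 0.10 ± 0.47 (95% interval −0.95 to 1.14). With any 1 library left out the amplitude lay between 0.14 and 0.36, and the sign of either difference depended on which library it was. Intervals of this width leave room for changes of about 1 log2 unit in either direction. The exact permutation test between times gave p = 0.77.

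gl had the widest range over the libraries of the 3 factors. At CT0 it was at 9.75 and 19.7 CPM (14.7 ± 7.01 SD, n = 2), and at CT6 at 36.0 and 26.5 CPM (31.2 ± 6.73). At CT12 it was at 10.7 and 38.1 CPM (24.4 ± 19.4), and at CT18 at 15.4 and 9.18 CPM (12.3 ± 4.42). The CT12 libraries held both a high and a low value, 3.56-fold apart. Both CT6 libraries were above both CT0 and both CT18 libraries, which 13.2% and 21.6% of tested genes showed. By mean the order was CT6, CT12, CT0, CT18, and no neighbours in that order differed beyond the larger of their SDs.

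For gl, CT18 minus CT6 was −1.34 ± 0.60 log2 units (95% interval −2.69 to 0.00; edgeR unadjusted p = 0.051, adjusted p = 0.51). This was the largest of the fitted differences of the 3 factors, and 9.65% of tested genes had an unadjusted p under 0.05 in the same comparison. With 1 library left out it lay between −1.76 and −1.01. CT12 minus CT0 was 0.73 ± 0.59 (95% interval −0.60 to 2.06; edgeR adjusted p = 1), with a sign that rested on CT12 replicate 2 (−0.46 without it). Leaving out CT12 replicate 1, CT0 replicate 2 or CT0 replicate 1 moved it to 1.37, 1.32 or 0.31. A 24-hour harmonic had an amplitude of 0.76 ± 0.30 log2 units, a 2.88-fold range, with a fitted peak at 7.9 h (edgeR unadjusted p = 0.084, adjusted p = 0.87). The fitted peak was at 4.7 h without CT12 replicate 2 and at 9.1 h without CT12 replicate 1. DESeq2 gave unadjusted p of 0.043 for the harmonic and 0.026 for CT18 minus CT6 (adjusted p of 0.65 and 0.32). In DESeq2, 725 and 1198 of the 9999 genes had an unadjusted p under 0.05 in these tests. The exact permutation test between times gave p = 0.45.

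**Figure D2:**
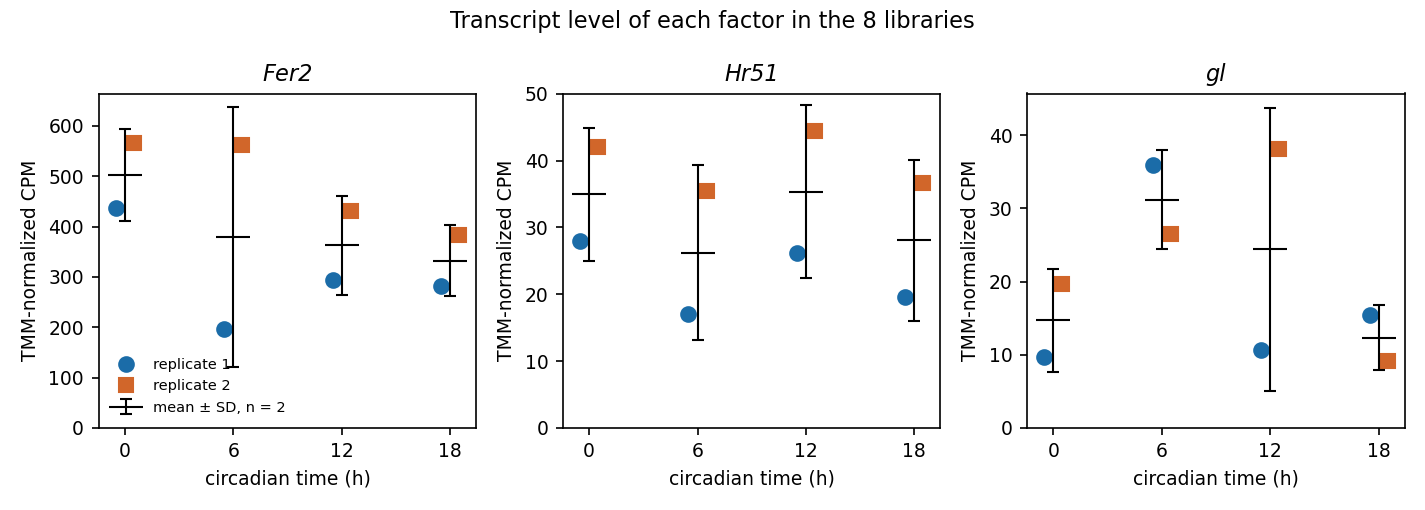
TMM-normalized CPM of Fer2, Hr51 and gl (linear axis from 0) against circadian time, with circles for replicate 1, squares for replicate 2 and bars for the mean ± SD (n = 2). Fer2 and Hr51 are higher in replicate 2 at all 4 times, and gl is high in both CT6 libraries and in CT12 replicate 2.

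Of the 3 factors, 0 passed edgeR's quasi-likelihood test after adjustment over all 9999 genes for any change over the 4 times, for the harmonic or for either difference, against 0% of all genes called. At an unadjusted p under 0.05 the count was also 0 of 3 in each of these tests in edgeR, against 3.30%, 5.17%, 2.11% and 9.65% of all genes. For CT18 minus CT6, gl stood at the edge, with an edgeR unadjusted p of 0.051, and 0.046 both with a filter at 5 CPM and with a robust prior (adjusted p = 0.41 and 0.50). In those 2 alternative fits, 879 of 7373 and 992 of 9999 genes had an unadjusted p under 0.05. For the same difference of gl, limma-voom gave an unadjusted p of 0.043 (adjusted p = 0.47), with 1054 of 9999 genes under 0.05. Fits with 1 library left out leave a time with 1 library, and their p-values are not listed. Without the filter on low counts gl had unadjusted edgeR p of 0.011 for any change, 0.004 for the harmonic and 0.0038 for CT18 minus CT6. The adjusted p were 0.28, 0.14 and 0.14. In that fit 1013, 1098 and 1426 of 13499 genes had an unadjusted p under 0.05 in these tests. DESeq2 and limma-voom called 0 of 3 after adjustment too, while DESeq2 called 0.280%, 0.330%, 0.120% and 0.470% of all genes.

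All 3 genes varied between duplicates more than most genes of like expression. Pooled over times, the SD of log2 CPM within a time was 0.61 for Fer2, 0.60 for Hr51 and 0.80 for gl. Among tested genes within 1 log2 unit of the same mean level these were the 97.1, 90.3 and 95 percentiles, and the medians of those genes were 0.25, 0.34 and 0.39. For Fer2 the difference between duplicates was widest at CT6, 2.87-fold, and between 1.29-fold and 1.47-fold at the other times. For Hr51 it was 1.51-fold, 2.08-fold, 1.70-fold and 1.87-fold at CT0, CT6, CT12 and CT18, each with replicate 2 the higher. Being higher in replicate 2 at all 4 times was found for 7.81% of tested genes. gl was higher in replicate 2 at CT0 and CT12 and lower at CT6 and CT18. In a fit with the replicate number as a term, Hr51 was higher in replicate 2 by 0.83 ± 0.19 log2 units (SE; edgeR unadjusted p = 0.0027, adjusted p = 0.60) and Fer2 by 0.72 ± 0.22 (unadjusted p = 0.011, adjusted p = 0.78). For gl the difference was 0.41 ± 0.45 (edgeR adjusted p = 0.94). None of the 3 passed after adjustment, against 0% of tested genes, and 6.17% of tested genes had an unadjusted p under 0.05.

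**Figure D3:**
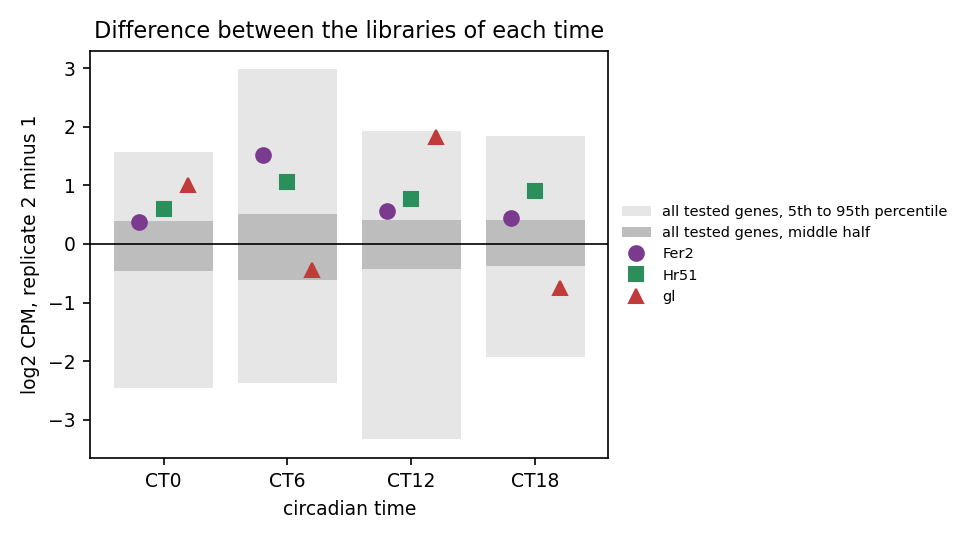
Difference in log2 CPM, replicate 2 minus replicate 1, at each time for the 3 factors, over bands that show all tested genes. Fer2 and Hr51 lie above 0 at all 4 times, and gl lies above 0 at CT0 and CT12 and below 0 at CT6 and CT18.

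Fer2 followed Pdf, the neuropeptide gene of the ventral lateral clock neurons, from library to library. Pdf was at 89.3 CPM in CT6 replicate 1 and 1647 CPM in CT18 replicate 1, the lowest of the 8 libraries, and these were also the lowest for Fer2 and for Hr51. The remaining libraries held 8822 CPM (CT12 replicate 1), 14088 CPM (CT18 replicate 2), 18007 CPM (CT12 replicate 2), 21182 CPM (CT0 replicate 1), 26519 CPM (CT0 replicate 2) and 37187 CPM (CT6 replicate 2). Fer2 rose along that sequence except for its last step, where CT0 replicate 2 and CT6 replicate 2 were level at 566 and 563 CPM. In bulk samples like these, fewer cells of a type and less RNA per cell cannot be told apart.

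Over the 8 libraries, log2 CPM of Fer2 and Pdf had a Pearson r of 0.92 (exact permutation p = 5e-05) and a Spearman rho of 0.98 (exact permutation p = 0.0004). This was 1 of 12 relations computed, chosen after the values were seen, and the Benjamini-Hochberg adjusted values over them were 0.0006 and 0.0048. Without the libraries farthest from the median of Pdf, CT6 replicate 1 and CT18 replicate 1, r was 0.97. Fer2 and Pdf were both higher in replicate 2 at all 4 times. With the mean of each replicate series subtracted, r was 0.87 (exact permutation within the series, p = 0.0104). Fer2 ranked 19 among the tested genes by its r with Pdf. In the replicate 1 series the order of the times was the same for both genes, CT6, CT18, CT12 and CT0 from low to high. The replicate 2 series gave CT18 and CT12 as the lower times for both genes, and each series is too small for a correlation of its own.

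The relation of Hr51 to Pdf was looser. Pearson r was 0.85 (exact permutation p = 0.0034, adjusted over the 12 relations 0.021) and Spearman rho was 0.69 (exact permutation p = 0.069, adjusted 0.21). Without CT6 replicate 1 and CT18 replicate 1, r was 0.45, so the relation rests on those libraries. Hr51 and Pdf were both higher in replicate 2 at all 4 times, and with the mean of each replicate series subtracted r was 0.84 (exact permutation within the series, p = 0.059). Hr51 and Fer2 had r = 0.86 (exact permutation p = 0.0065, adjusted 0.026) and rho = 0.74 (exact permutation p = 0.046, adjusted 0.18), with r = 0.59 without the same libraries. For gl and Pdf over all 8 libraries r was −0.32 (exact permutation p = 0.47, adjusted 0.94; rho = 0.02, p = 0.98, adjusted 1), and it was 0.53 without CT6 replicate 1 and CT18 replicate 1. With Fer2 and with Hr51, gl had r of −0.06 and 0.03 (exact permutation p = 0.89 and 0.94, adjusted 0.94 each; rho of 0 and 0.12, p = 1 and 0.79, adjusted 1 each). Without the same libraries these were 0.55 and 0.72, so the low values and the negative sign with Pdf rest on those libraries. Within CT6, where Pdf differed most between duplicates, Fer2 and Hr51 were low and gl was high in the Pdf-poor library.

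**Figure D4:**
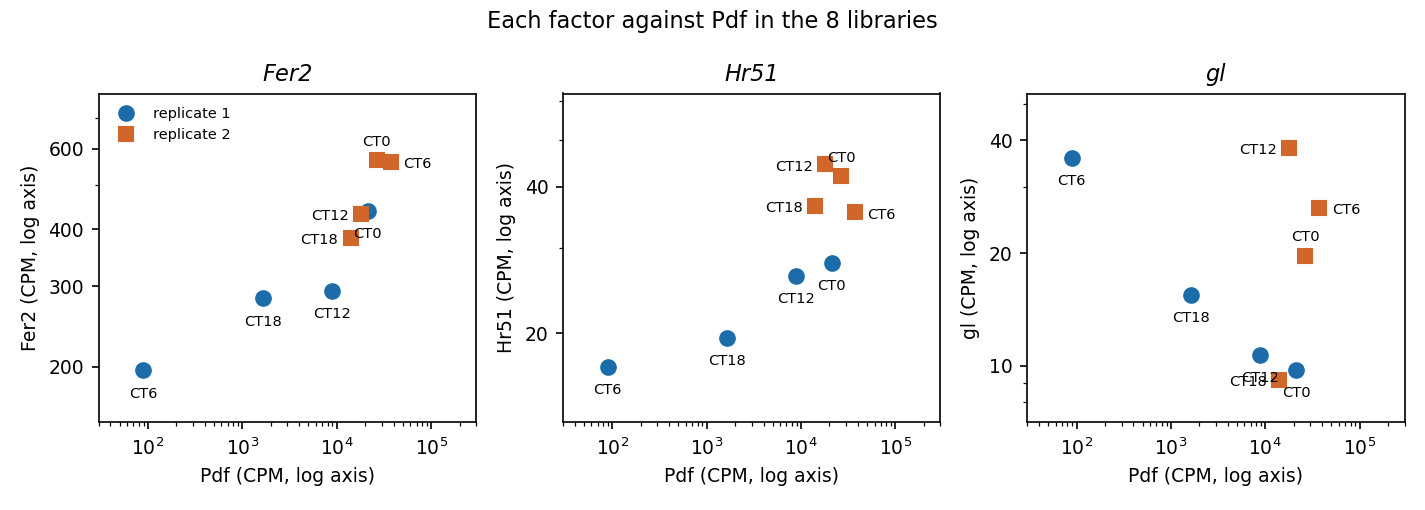
CPM of each factor against CPM of Pdf, both on log axes, 1 point per library labelled with its time. Fer2 climbs with Pdf from 196 to 566 CPM, Hr51 is lowest in the same low-Pdf libraries, and gl is high in the library with the least Pdf (36.0 CPM).

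Dorsal clock neuron peptides gave a different picture. Dh31 and CNMa, peptides of dorsal neurons that include the group for which gl is required, ran from 4251 to 11851 CPM and from 13.4 to 450.8 CPM. CNMa was lowest in CT6 replicate 2, where gl was at 26.5 CPM, and highest in CT18 replicate 2, where gl was lowest at 9.18 CPM. Over the 8 libraries the mean log2 TPM of the 5 dorsal peptide genes had r of −0.20 with gl (exact permutation p = 0.73, adjusted 0.94), −0.47 with Fer2 (p = 0.25, adjusted 0.59) and −0.27 with Hr51 (p = 0.55, adjusted 0.94). The Spearman values were −0.19, −0.36 and −0.17 (exact permutation p of 0.66, 0.39 and 0.70, adjusted 1, 0.93 and 1). Without CT6 replicate 2 and CT18 replicate 1, r was 0.20 with gl, −0.02 with Fer2 and 0.03 with Hr51, so the negative values rest on those libraries.

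gl was highest in 2 libraries in which long genes had relatively high counts. As a measure of this, each gene's departure from its mean log2 CPM was set against effective length over 5766 genes. This Spearman correlation, across genes that are not independent replicates, was 0.68 in CT6 replicate 1, 0.47 in CT12 replicate 2 and 0.41 in CT0 replicate 2. It was between −0.56 and −0.11 in the other 5 libraries. CT6 replicate 1 and CT12 replicate 2 were also the highest for gl, and CT18 replicate 2, with the lowest correlation, was the lowest for gl. Across libraries this length measure had r = 0.77 with gl (exact permutation p = 0.036, adjusted 0.11) and rho = 0.81 (exact permutation p = 0.022, adjusted 0.13), and r = 0.45 without CT6 replicate 1 and CT12 replicate 2. With Fer2 and Hr51 it had r of −0.15 and 0.04 (exact permutation p = 0.72 and 0.92, adjusted 0.94 each), with rho of −0.05 and 0.02 (p = 0.93 and 0.98, adjusted 1 each). Without CT6 replicate 1 and CT12 replicate 2 their r was 0.55 and 0.55, beside the 0.45 of gl, so the difference between gl and the other factors in this relation rests on those libraries. With each library's length trend removed, gl kept an amplitude of 0.59 (edgeR unadjusted p = 0.15) and CT18 minus CT6 was −0.97 log2 units (unadjusted p = 0.11, adjusted p = 0.78). gl ranked 879 among tested genes by its r with the length measure. The part of gene length in the values of gl was not tested beyond this.

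**Figure D5:**
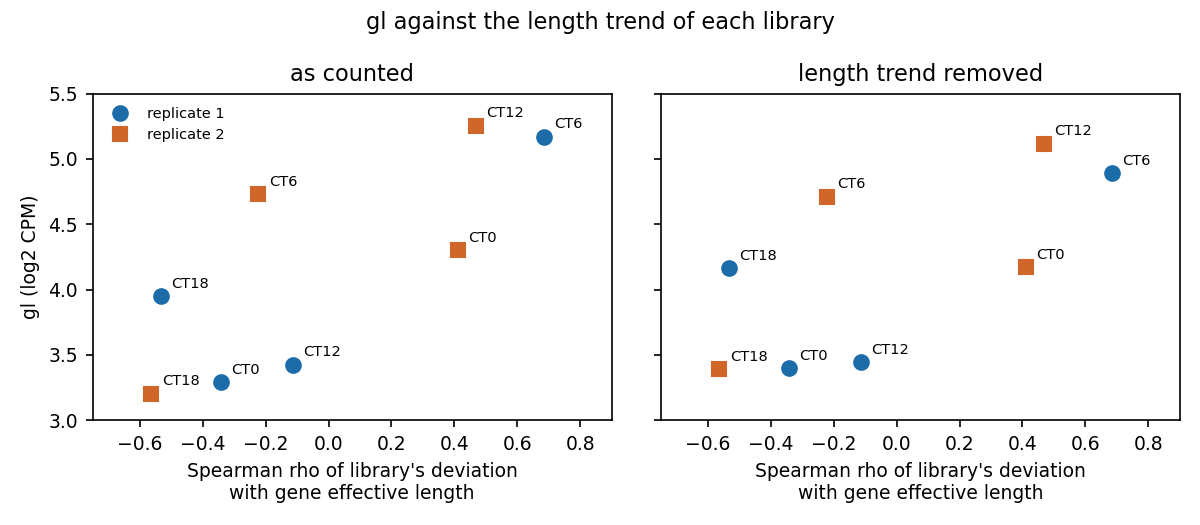
gl in log2 CPM against the length measure of each library, as counted (left) and with each library's length trend removed (right), 1 point per library. CT6 replicate 1 and CT12 replicate 2 are at the top right in both panels, and CT18 replicate 2 is at the lower left.

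Cells of other types that use these factors were checked by their markers. For gl, the photoreceptor list of 14 genes summed to between 27.7 and 308.1 TPM, of which chp, a defining photoreceptor gene, made up at most 1.12 TPM and was at 0 in 3 libraries. trp, the photoreceptor channel, was at 0.069 to 3.10 TPM. trp and norpA, the phospholipase gene of phototransduction (at 13.1 to 29.4 TPM), were both highest in CT6 replicate 1, where gl was highest in TPM. Of the neuron markers, elav, nSyb and Syt1 were also highest in TPM in that library, and brp, nrv3 and fne were not. By CPM, gl was highest in CT12 replicate 2 (38.1, against 36.0 in CT6 replicate 1). The rhodopsin gene ninaE was highest in CT18 replicate 2 (130.5 TPM), where gl was lowest. The arrestin gene Arr2 was highest in CT0 replicate 2 (195.1 TPM), where gl was at 8.53 TPM. The summed list was highest in CT0 replicate 2 and next highest in CT18 replicate 2 (262.3 TPM). For Fer2, the 4 dopaminergic markers summed to between 728.4 TPM in CT6 replicate 2 and 2588 TPM in CT6 replicate 1, the library with the least Fer2. ple, which encodes tyrosine hydroxylase, and DAT, the dopamine transporter gene, were highest in CT12 replicate 1 (259.1 and 160.7 TPM) and lowest in CT6 replicate 2 (37.4 and 20.1 TPM). Vmat, the vesicular monoamine transporter gene, was highest in CT6 replicate 1 (1263 TPM) and lowest in CT12 replicate 1 and CT18 replicate 1 (126.6 and 132.7 TPM), which were also low in Fer2. Ddc, the dopa decarboxylase gene, was highest in CT6 replicate 1 (990.4 TPM) and lowest in CT18 replicate 2 (392.5 TPM). For Hr51, the 8 Kenyon cell markers summed to between 587.8 and 876.1 TPM, most of it jdp, toy and Pka-C1, while ey was at 2.50 to 13.0 TPM, dac at 0.302 to 1.79 TPM and rut at 0.253 to 0.619 TPM. The part of photoreceptors, dopaminergic cells and Kenyon cells in these values was not tested.

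Among the 21 bHLH genes listed as relatives of Fer2, 11 were tested and 4 had no count in any library. Fer2 was above each of them, the nearest being Oli at 75.3 to 127.0 TPM, and its closest namesakes were Fer1, at 11.4 to 34.9 TPM, and Fer3, at 0 to 2.77 TPM. None of the 11 passed the harmonic test over all genes, and their median amplitude was 0.48 log2 units beside 0.29 over all tested genes. The smallest p belonged to dimm, a factor of peptide-secreting neurons (0.69 ± 0.17, edgeR adjusted p = 0.87), and crp (0.48 ± 0.17, adjusted p = 0.87). Of the 20 other nuclear receptors, 14 were tested and 3 had no count in any library. By median level per length (17.3 TPM) Hr51 lay among the more abundant of them, below usp, the partner of the ecdysone receptor (35.2 TPM), and above EcR itself (10.4 TPM). Their median amplitude was 0.34 and 0 of 14 passed, with usp (0.68 ± 0.19) and svp (1.77 ± 0.75) the smallest in p (edgeR adjusted p = 0.87 each).

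Transcription factors of the eye were mostly low. Of 14, of which toy, ey and dac also stand in the Kenyon cell list, 13 were tested and 0 passed, with a median amplitude of 0.62. so and eya, partners in eye specification, were at 0 to 1.86 TPM and 0.430 to 6.05 TPM, while toy, a Pax6 gene also used in brain neurons, was at 89.0 to 165.8 TPM. The smallest p were those of eya (0.85 ± 0.38) and dac (0.90 ± 0.42; edgeR adjusted p = 0.87 each). Among 9 other transcription factors of clock neurons 0 passed, with a median amplitude of 0.22. sr, induced by neuronal activity, had an amplitude of 0.92 ± 0.20 and Chi one of 0.56 ± 0.19 (edgeR adjusted p = 0.87 each). Of the 8 core clock genes, 0 passed over all genes, 4 had an unadjusted p under 0.05, and the median amplitude was 0.59. Their smallest p were those of vri, a repressor of Clk, and of Clk itself, with amplitudes of 1.33 ± 0.26 and 1.42 ± 0.29 log2 units and fitted peaks at 11.6 and 1.91 h (edgeR adjusted p = 0.87 each).

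None of the 5 lateral and 5 dorsal peptide genes passed either, with 1 of each list at an unadjusted p under 0.05. NPF and ITP, of lateral neurons, had amplitudes of 2.85 ± 0.82 and 0.61 ± 0.24, and CCHa1 and Dh31, of dorsal neurons, had 0.79 ± 0.27 and 0.45 ± 0.19 (edgeR adjusted p = 0.87 each). In the marker lists of other cells 0 of 14 photoreceptor, 4 dopaminergic, 8 Kenyon cell, 8 glial, 4 tested hemocyte and 6 neuronal genes passed. The smallest p were those of ninaE and Rh4, of Vmat and Ddc, of Pka-C1 and prt, of Eaat1 and Gs2, of Sr-CI and NimC1, and of Syt1 and nrv3 in that order of lists (edgeR adjusted p from 0.87 to 0.90). ninaE, Rh4, Sr-CI and NimC1 had no count in some libraries, where a fitted amplitude depends on the prior count.

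The genes whose pattern over the 8 libraries was most like that of Fer2, by Pearson r of log2 CPM, were Mys45A (0.96), CrebA (0.95), CG3032 (0.95), Scamp (0.95) and Fbw5 (0.94). For Hr51 they included CG46281 (0.96), msl-3 (0.95), Prp19 (0.95) and RpL17 (0.95), although CG46281 was at no more than 0.775 CPM. gl had CG32396 (0.98), dop (0.97), CG9135 (0.97), ref(2)P (0.97) and CG7366 (0.96), of which CG32396 and CG7366 were at no more than 2.17 and 1.34 CPM. Hr51 stood at rank 69 of likeness to Fer2, and gl at rank 5389. These values describe 8 libraries that share their scaling factors.

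The last 268 bases of Fer2 overlap those of CG5916 on the other strand, at 3R 16147029 to 16149636. CG5916 was at 49.3 to 73.4 CPM and had between 9.64% and 33.3% as many counts as Fer2. The strand setting of the counting is not known from the labels or headers, so reads of the shared bases cannot be told apart. CG5916 was at 65.3 CPM in CT6 replicate 1, where Fer2 was lowest, and at 54.6 CPM in CT0 replicate 2, where Fer2 was highest. No annotated gene overlaps Hr51 or gl.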

How the data were processed

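Polyadenylated RNA of 8 libraries was analysed, grouped by the circadian time in the labels. Per the file headers, the authors deposited estimated counts per gene that were not normalized. Per the file headers, the authors also deposited TPM values and gene lengths. The submitters' processing notes name DRAGEN, Salmon and dm6, without their roles or versions. The estimated counts were rounded, filtered with filterByExpr (minimum count 10; 9999 genes) and scaled by TMM. Tests were edgeR 4.0.16 quasi-likelihood F-tests in R 4.3.3 with the 8 libraries in a single model of circadian time and Benjamini-Hochberg adjustment over all tested genes at 0.05 (prior degrees of freedom 5.43). Log2 CPM used a prior count of 1. The length trend is each library's lowess curve (span 0.3) of deviation against effective length. Exact permutation tests enumerated all arrangements and were two-sided. The fit was tested on simulated data. Of 50 genes simulated at each amplitude, the harmonic test recovered 4% at 0.5 and 52% at 1 log2 unit. It recovered 64% at 1.5 and 70% at 2 log2 units, with 4 false calls among 9606 genes tested. The changed genes were picked at random from the tested genes, and counts were drawn independently, without a length trend. Fer2, Hr51 and gl varied between duplicates more than most genes of like expression, so these shares need not hold for them. Alternatives included DESeq2 1.42.0, limma 3.58.1, RLE, other filters, log2 TPM, length corrections and left-out libraries. A robust prior and the relations over libraries were added after seeing the data.

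The members and the 13 lists were chosen with earlier results of these data known. Named genes were the 3 factors, in a list the genes that passed or else the 2 with the smallest harmonic p, and the 5 genes most alike, of which 1 is not reported here. Further genes were picked once their values had been seen. Coordinates are those of Ensembl release 115. Control libraries and chromatin accessibility were not analysed here.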

Additional observations from a re-analysis of the deposited data

How the results depend on the processing

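No result for a member crossed the adjusted threshold of 0.05 under any alternative run for the 4 edgeR tests, and all of the exact tests between times stayed above 0.05. The adjusted p of gl for the harmonic was smallest without the filter on low counts (0.143; largest 1). Counts of genes passing did move. Without the filter edgeR called 249 genes for any change, 250 for the harmonic, 101 for CT12 minus CT0 and 192 for CT18 minus CT6, and DESeq2 called 28, 33, 12 and 47. With 1 library left out the counts ran from 0 to 5 for any change and from 0 to 1 for each of the harmonic, CT12 minus CT0 and CT18 minus CT6. Signs of small differences turned. For Hr51, CT12 minus CT0 was −0.06 in limma-voom, −0.02 with an effective length offset and −0.42 to 0.35 with 1 library left out. CT18 minus CT6 then ran from −0.42 to 0.73, and the amplitude from 0.14 to 0.36 with the peak at 6.1 h without CT6 replicate 1 or CT18 replicate 2 (17.5 h with all libraries). For Fer2, CT18 minus CT6 ran from −0.76 to 0.76, and for gl, CT12 minus CT0 ran from −0.46 to 1.37. The causes were not tested. The relation of gl to length had r = 0.68 with the length trend removed and 0.69 to 0.86 with 1 library left out. It stayed past 0.05 in 8 alternatives. In 6 it did not, with the length trend removed and in several of the runs with 1 library left out. The relation of Fer2 to Pdf stayed at r of 0.87 to 0.96 and past 0.05 under every alternative run.

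Replicate numbers did not pair the libraries by the check used: deviations of same-numbered libraries correlated at between −0.066 and 0.230 across times. With the replicate number as a block, 0 genes passed any of the 4 tests, Hr51 had CT12 minus CT0 of −0.01, and the relation of Hr51 to Pdf had r = 0.84 (exact permutation p = 0.059). With 2 libraries per time, the 95% intervals of the differences reached about 1 log2 unit to either side for Fer2 and Hr51, and a difference of −1.34 for gl did not pass the adjusted threshold.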

Other observations

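Among the genes of the lists, Pdf, the circadian photoreceptor gene cry, the bHLH genes HLH4C and net, and brp, a gene of the presynaptic active zone, were like Fer2 and Hr51 higher in replicate 2 at all 4 times. ple, Ddc and the homeobox gene scro were among those lower in replicate 2 at all 4 times. HLH4C, like Fer2, was lowest in CT6 replicate 1, at 10.1 TPM against 24.5 to 78.8 TPM in the other libraries. These genes were picked once their values had been seen. Over all 9999 tested genes, 781 were higher and 887 were lower in replicate 2 at all 4 times. With the length trend removed, replicate 2 exceeded replicate 1 by 0.76 ± 0.16 log2 units for Hr51 and by 0.67 ± 0.16 for Fer2 (SE; edgeR adjusted p = 0.33 each), each in 4 of 4 times.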
